A study of Anopheles coluzzii and Anopheles merus with 32 samples.

Results

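In larvae of the mosquito Anopheles merus, 80 of 10505 genes tested lay on opposite sides of freshwater after a saltwater exposure at the 2 ages studied. Of these, 47 were higher in saltwater (SW) than in freshwater (FW) at 18 h after hatching and lower at 66 h; they are called the 18 h-high genes. The other 33 were lower at 18 h and higher at 66 h, and are called the 66 h-high genes. Both names give only the age at which SW stood above FW in An. merus, not the age of the higher level. In FW, 44 of the 47 18 h-high genes stood higher at 66 h than at 18 h in that species, as did 5234 of all 10505 genes tested. Members were chosen by their measured values: d, the mean log2(CPM + 1) in SW minus that in FW in An. merus, had to reach 0.5 in size at both ages with opposite signs. CPM is the authors' read abundance of a gene, scaled for library size. Members also needed a mean CPM of 1 or more across the 32 libraries, which is the minimum of the tests too, so all 80 were tested. Values of d are therefore a description of how the genes were picked, and are not tested.

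The study compared An. merus, a salt-tolerant member of the An. gambiae complex, with An. coluzzii, whose larvae live in freshwater. Every larva, SW groups included, had been reared in FW. At 18 h or 66 h after hatching, larvae were moved to FW (DI in the sample names) or SW for 6 h, and whole bodies were pooled at 35 to 50 larvae a library. Each of the 8 groups, formed by 2 species, 2 ages and 2 waters, held 4 libraries. The sources used here do not give the salinity or the colony of each species. In An. coluzzii at 18 h, FW replicates 1 and 2 stood apart from replicates 3 and 4 in the level of the 18 h-high genes. The main counts and medians of members for water at 18 h, its change with age and age in FW are given both with and without them. The species difference in FW at 18 h is given only with them. Replicates 1 and 2 were singled out by the level of these genes, so values without them are no independent check of these genes. The tissue label could not be checked against markers, because the files pair no identifier with a gene name. Genes are given by identifier for the same reason, and neither roles nor sequences are given.

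Mosquito larvae in dilute water take up ions through the anal papillae and recover ions from the urine in the rectum, while larvae of salt-tolerant species can excrete excess ions through the rectum. Larvae also pass through repeated moults, and the RNA levels of many genes follow growth and the moult cycle. A gene can therefore stand at a different level at each age before any change of water. In whole-body pools, fewer cells of a type and less RNA per cell cannot be told apart.

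A reversal of sign was uncommon among genes that differed at both ages. In An. merus, 4126 genes reached 0.5 in size at 18 h, 4733 did so at 66 h, and 2846 did so at both. Of the last, 1300 were higher in SW at both ages and 1466 were lower at both, which leaves the 80 members. Most members lay near the limit. The smaller of the 2 values of d was at least 1 in size for 5 of the 47 18 h-high genes and 3 of the 33 66 h-high genes, with medians of 0.63 and 0.58.

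**Figure D1:**
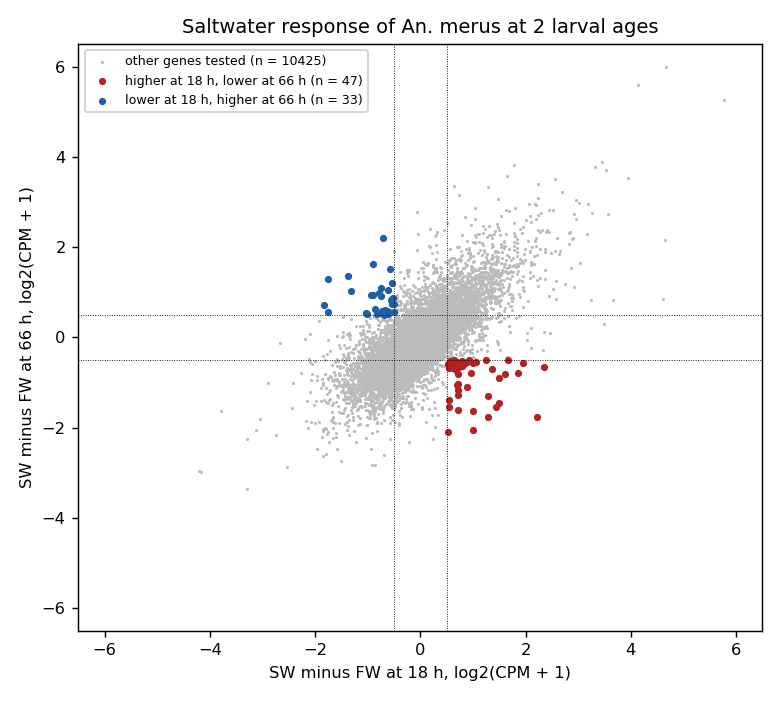
Each point is a gene, placed by the SW minus FW difference of mean log2(CPM + 1) in An. merus at 18 h (horizontal axis) and at 66 h (vertical axis), with dotted lines at 0.5 in size and n = 4 libraries a group. The 47 18 h-high genes lie at the lower right and the 33 66 h-high genes at the upper left. Of the other genes past 0.5 at both ages, 1300 lie at the upper right and 1466 at the lower left.

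Just inside the limit among the 18 h-high genes were AGAP011806, with d of 1.25 at 18 h and -0.51 at 66 h, and AGAP000646, with 0.63 and -0.51. Just outside it were AGAP007189, with 0.50 and -0.57, and AGAP028031, with 0.49 and -0.56. Among the 66 h-high genes the innermost were AGAP004975, with -0.69 and 0.50, and AGAP007223, with -0.51 and 0.56. Just outside were AGAP011216, with -0.89 and 0.50, and AGAP001084, with -0.63 and 0.50.

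In the 18 h-high genes d at 18 h ran from 0.52 to 2.34 with a median of 0.80, and d at 66 h from -2.09 to -0.51 with a median of -0.67. AGAP004501 had the largest smaller d of all 80 members, 2.21 at 18 h and -1.77 at 66 h. In An. merus at 18 h it stood at 30.3, 16.9, 28.8 and 17.8 CPM in FW and at 111, 119, 94.9 and 109 CPM in SW. The 66 h libraries held 365, 463, 299 and 477 CPM in FW and 132, 111, 113 and 104 CPM in SW. The libraries of the 2 waters did not overlap at either age. The SW groups of the 2 ages had almost the same mean, 109 ± 10.2 and 115 ± 12 CPM (SD, n = 4), between FW means of 23.4 ± 7.09 and 401 ± 84.3 CPM.

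In An. coluzzii AGAP004501 stood at 8.55, 11.8, 32 and 49.7 CPM at 18 h in FW and at 23.5, 42.4, 37 and 38.3 CPM in SW. By 66 h it stood at 307, 392, 513 and 428 CPM in FW and at 349, 377, 470 and 349 CPM in SW. The waters overlapped at both ages there, while every 66 h library lay above every 18 h library. From 18 h to 66 h the gene rose in FW by 4.25 on the log2(CPM + 1) scale (SE 0.33, adjusted p = 3.3e-11, limma) and in SW by 3.44 (SE 0.33, adjusted p = 1.9e-09, limma). Its SW minus FW difference was 0.74 at 18 h (SE 0.33, adjusted p = 0.15, limma) and -0.07 at 66 h (SE 0.33, adjusted p = 0.94, limma). All adjusted p-values come from limma with Benjamini-Hochberg adjustment over the 10505 genes, and genes below 0.05 are called.

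**Figure D2:**
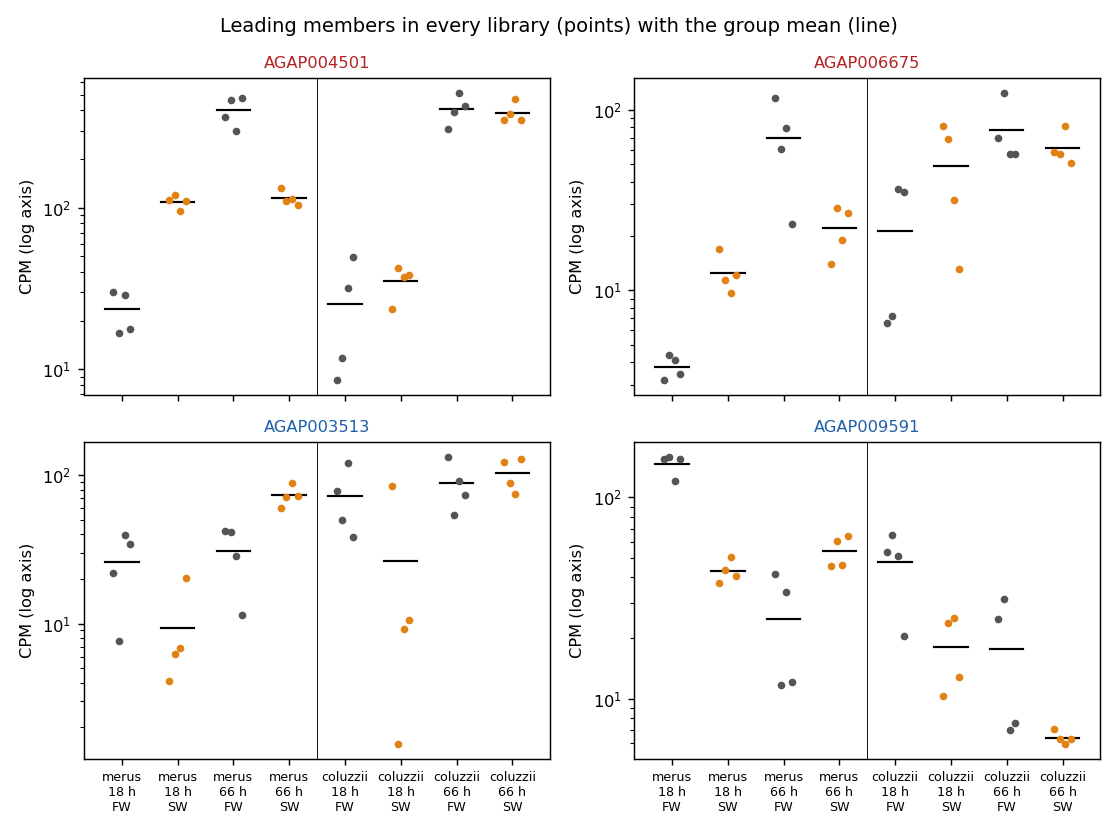
CPM on a log axis in every library (points) with the group mean (line) for the leading 18 h-high genes AGAP004501 and AGAP006675 (upper row) and the leading 66 h-high genes AGAP003513 and AGAP009591 (lower row), with FW in grey, SW in orange and n = 4 libraries a group. In An. merus (left of each panel) the order of the waters turns round between the ages, and in An. coluzzii (right) the libraries of the 2 waters overlap at 66 h for all 4 genes.

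The same arrangement in An. merus was seen in AGAP006675, AGAP003321 and AGAP005671, also among the 6 leading 18 h-high genes. AGAP006675 stood at 3.18, 4.38, 4.12 and 3.45 CPM at 18 h in FW against 17, 11.4, 9.70 and 12.1 CPM in SW, and at 66 h at 116, 60.4, 79.7 and 23.3 CPM in FW against 14, 28.5, 19 and 26.9 CPM in SW. Its waters did not overlap at 18 h, and at 66 h 1 FW library lay among the SW libraries. AGAP003321 stood at 70.6, 47.9, 43.1 and 41.7 CPM at 18 h in FW against 105, 122, 111 and 160 CPM in SW. Its 66 h values were 235, 259, 138 and 337 CPM in FW against 95.2, 107, 97.6 and 76.3 CPM in SW, with no overlap at either age. AGAP005671 had means of 85.3 ± 26.7 and 232 ± 77.7 CPM in FW and SW at 18 h and of 578 ± 109 and 203 ± 57.7 CPM at 66 h (SD, n = 4). For all 3 genes the highest An. merus group was FW at 66 h and the lowest was FW at 18 h.

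In An. coluzzii none of these 3 genes was called for water at either age. The SW minus FW difference at 18 h was 1.24 for AGAP006675 (SE 0.53, adjusted p = 0.13, limma), 1.48 for AGAP005671 (SE 0.60, adjusted p = 0.12, limma) and 0.63 for AGAP003321 (SE 0.26, adjusted p = 0.12, limma). At 66 h it was -0.26, -0.76 and -0.09, with adjusted p of 0.86, 0.58 and 0.91 (limma). AGAP005671 had the widest age difference of the 3 there, with 1.92, 1.81, 21 and 12.4 CPM at 18 h in FW against 431, 596, 205 and 131 CPM at 66 h in FW. It rose by 5.37 (SE 0.60, adjusted p = 3.1e-08, limma).

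AGAP005690 and AGAP005689, also among the 6 leading 18 h-high genes, varied widely between libraries of 1 group. AGAP005690 stood at 7.25, 9.01, 15.2 and 5.98 CPM at 18 h in FW and at 6.20, 37.6, 21.3 and 52.4 CPM in SW. Its 66 h libraries held 197, 65.5, 282 and 41.1 CPM in FW and 22.6, 22.2, 30.2 and 69.5 CPM in SW, so that the waters overlapped at both ages. AGAP005689 ranged as widely, from 1.95 to 7.50 and from 1.75 to 18.1 CPM at 18 h, and from 15.2 to 113 and from 8.93 to 22.5 CPM at 66 h. In An. coluzzii both were scarce, with group means of 0.515 to 1.92 CPM for AGAP005690 and of 0.355 to 4.23 CPM for AGAP005689.

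The rule allows only FW at 66 h or SW at 18 h as the highest An. merus group of an 18 h-high gene. It likewise allows only FW at 18 h or SW at 66 h as the lowest. FW at 66 h was the highest group for 33 of 47 and SW at 18 h for the other 14, while FW at 18 h was the lowest for 35 and SW at 66 h for the other 12. Most of these genes were thus higher at the later age in FW. The 66 h minus 18 h difference had a median of 1.65 in FW and of -0.12 in SW, against -0.00248 and -0.05 over all genes tested. Over all genes its quartiles were -0.35 and 0.40 in FW and -0.52 and 0.48 in SW. Among the members it was at least 1 in size for 35 of 47 genes in FW and for 14 in SW. These age differences use the libraries that chose the members, and the rule itself sets the sign of the FW gap minus the SW gap, so they carry no test. The medians over the 47 genes of the group mean were 18.1 and 35.3 CPM in FW and SW at 18 h, and 68.3 and 35.7 CPM at 66 h.

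Among the 66 h-high genes d at 18 h ran from -1.82 to -0.51 with a median of -0.71, and d at 66 h from 0.50 to 2.20 with a median of 0.75. The leading gene, AGAP003513, had d of -1.38 and 1.36. In An. merus at 18 h it stood at 21.9, 7.60, 39.6 and 34.4 CPM in FW and at 4.14, 6.27, 6.82 and 20.2 CPM in SW. Its 66 h libraries held 42, 41.7, 28.4 and 11.4 CPM in FW and 60.4, 71, 89.3 and 71.9 CPM in SW. The waters overlapped at 18 h through FW replicate 2 and SW replicate 4 and were apart at 66 h, where every SW library was higher.

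In An. coluzzii AGAP003513 stood at 78.7, 49.9, 121 and 38.1 CPM at 18 h in FW and at 84.1, 1.54, 9.17 and 10.6 CPM in SW. At 66 h the FW libraries held 133, 54.2, 91.9 and 73.2 CPM and the SW libraries 123, 88.4, 75 and 129 CPM. At 18 h 3 of the 4 SW libraries lay below every FW library, and SW replicate 1 lay above all but 1 of them. The gene fell in SW at 18 h by 2.39 (SE 0.69, adjusted p = 0.033, limma). That call was lost when any of 6 of the 32 libraries was left out and in edgeR (adjusted p = 0.17). At 66 h the difference was 0.27 (SE 0.69, adjusted p = 0.89, limma).

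AGAP009591 and AGAP008537 were highest in FW at 18 h rather than at the later age. AGAP009591 stood in An. merus at 155, 159, 120 and 155 CPM at 18 h in FW and at 37.7, 43.4, 50.5 and 40.8 CPM in SW, and at 66 h at 41.7, 11.7, 34 and 12.1 CPM in FW and at 45.8, 60.7, 46.2 and 64.1 CPM in SW. AGAP008537 had means of 52.4 ± 2.47 and 20.5 ± 3.19 CPM in FW and SW at 18 h, and of 14.4 ± 8.84 and 29 ± 18.9 CPM at 66 h (SD, n = 4). AGAP009591 did not overlap between the waters at either age. In An. coluzzii the SW minus FW difference of AGAP009591 was -1.33 at 18 h (SE 0.42, adjusted p = 0.049, limma) and -1.07 at 66 h (SE 0.42, adjusted p = 0.20, limma). Its call at 18 h was lost when any of 23 of the 32 libraries was left out.

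AGAP008867 had the larger d at the later age, -0.91 at 18 h and 1.64 at 66 h. In An. merus it stood at 139, 153, 93.1 and 95.3 CPM at 18 h in FW and at 41.7, 57.1, 67.7 and 91.9 CPM in SW. The 66 h values were 137, 105, 112 and 68.8 CPM in FW and 318, 298, 320 and 352 CPM in SW. The waters were apart at both ages, narrowly at 18 h and widely at 66 h. In An. coluzzii the differences had the same signs, -0.59 at 18 h (SE 0.22, adjusted p = 0.087, limma) and 0.53 at 66 h (SE 0.22, adjusted p = 0.23, limma), and neither passed the test.

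The last 2 of the 6 leading 66 h-high genes were less abundant. AGAP000481 had An. merus means of 6.72 ± 1.41 and 3.15 ± 0.741 CPM in FW and SW at 18 h and of 4.45 ± 3.13 and 8.41 ± 1.25 CPM at 66 h (SD, n = 4). In An. coluzzii its differences were -0.04 and -0.07, with adjusted p of 0.95 and 0.93 (limma). AGAP004976 had An. merus means of 1.67 ± 0.596 and 0.383 ± 0.294 CPM at 18 h and of 1.73 ± 1.56 and 3.76 ± 1.53 CPM at 66 h (SD, n = 4), so its values rest on few reads. In An. coluzzii AGAP004976 stood higher at the later age, and its differences by water were -1.17 and -1.23, with adjusted p of 0.19 and 0.30 (limma).

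For every 66 h-high gene the rule sets the 66 h minus 18 h difference in An. merus higher in SW than in FW. It also allows only SW at 66 h or FW at 18 h as the highest group, and SW at 18 h or FW at 66 h as the lowest. The values below are therefore a description and carry no test. SW at 66 h was the highest An. merus group for 28 of 33 and FW at 18 h for the other 5, while SW at 18 h was the lowest for 28 and FW at 66 h for the other 5. The 66 h minus 18 h difference had a median of 0.31 in FW and of 2.0 in SW, against -0.00248 and -0.05 over all genes tested. Over all genes its quartiles were -0.35 and 0.40 in FW and -0.52 and 0.48 in SW. Among the members it was at least 1 in size for 15 of 33 genes in FW and for 26 in SW. The medians of the group mean were 13.6 and 6.16 CPM in FW and SW at 18 h, and 20.9 and 38.7 CPM at 66 h.

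**Figure D3:**
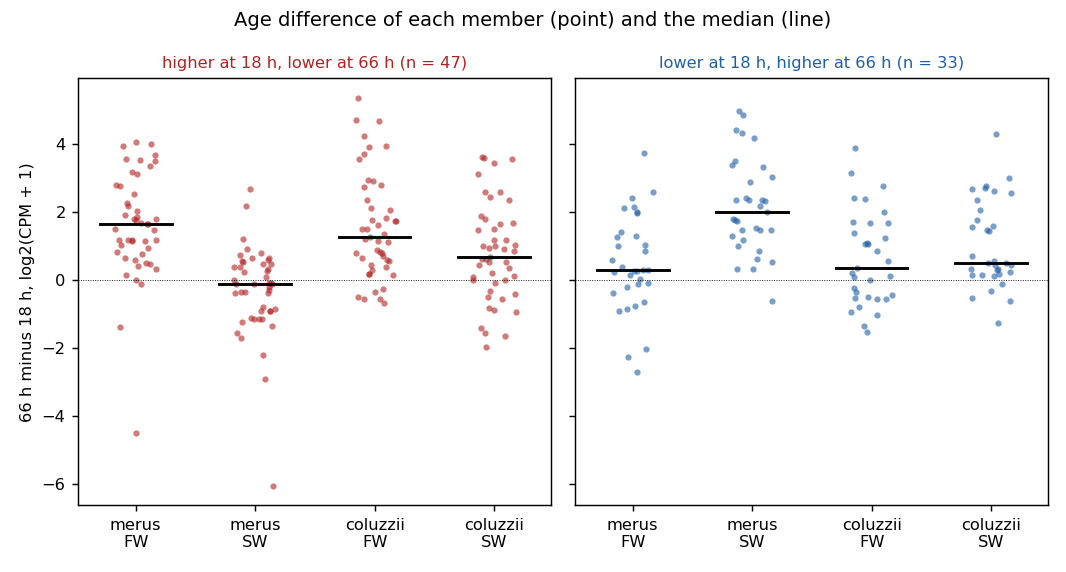
Each point is a member's 66 h minus 18 h difference of mean log2(CPM + 1) in 1 species and water, with the median over the members as a line; n = 4 libraries a group. The An. merus medians are 1.65 in FW and -0.12 in SW for the 47 18 h-high genes and 0.31 and 2.0 for the 33 66 h-high genes, and the An. coluzzii medians are 1.26 and 0.69, and 0.35 and 0.52.

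Not every member passed a test in An. merus. Of the 47 18 h-high genes, 29 were called higher at 18 h (25.2% of all genes tested were) and 30 lower at 66 h (31.4% of all genes). Of the 33 66 h-high genes, 17 were called lower at 18 h (26.5% of all genes) and 17 higher at 66 h (25.8% of all genes). At both ages 22 of the 18 h-high genes and 13 of the 66 h-high genes were called, while 1.03% of all genes were called at both ages in opposite directions. The 4 FW and 4 SW libraries did not overlap at either age for 22 of 47 (0.524% of all genes were apart in this order) and for 6 of 33 (0.219% of all genes). The age by water interaction was called for 35 of 47 (7.8% of all genes were lower in this term) and for 21 of 33 (5.46% were higher). The rule used each of these contrasts, so the counts describe the members and nothing is read from them.

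The An. coluzzii libraries took no part in d, and their comparisons were tested. They contributed only to the minimum on the mean. At 18 h the 18 h-high genes stood mostly higher in SW in this species as well. Of the 47 genes, 12 (25.5%) rose and 0 fell, against 4.7% and 3.55% of all genes tested. Of the 1974 genes with d of at least 0.5 in An. merus at 18 h, 18.4% rose. The 47 genes had 46 differences above 0. Their median was 0.53, against 0.28 over the 1974 genes and 0.00032 over all genes. Of the 33 66 h-high genes, 2 (6.06%) fell, AGAP003513 and AGAP009591, and 0 rose. Of the 2152 genes with d of -0.5 or lower in An. merus at 18 h, 13.2% fell. The 66 h-high genes had a median of -0.46, against -0.24 over the 2152 genes, with 25 of 33 differences below 0. At an unadjusted p under 0.05 the counts were 24 of 47 (51.1%) and 12 of 33 (36.4%), against 26.5% of all genes. The shares were 43.1% of the 1974 genes and 38.4% of the 2152 genes.

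The signs at 18 h are set here beside those of other genes. Of the 1974 genes with d of at least 0.5 in An. merus at 18 h, whatever they did at 66 h, 85.9% were above 0 in An. coluzzii at 18 h, against 97.9% of the 18 h-high genes. Of the 2152 genes with d of -0.5 or lower, 81.6% were below 0, against 75.8% of the 66 h-high genes. Without FW replicates 1 and 2 the first pair of shares became 78.0% and 68.1%, and the second 80.7% and 81.8%. These shares are descriptions over genes, which are not replicates.

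The 3 genes with the smallest adjusted p at 18 h in An. coluzzii were AGAP002542, AGAP028173 and AGAP007023. AGAP002542 stood at 3.39, 3.86, 5.33 and 7.26 CPM in FW and at 8.40, 8.88, 8.84 and 10.6 CPM in SW, with no overlap, and rose by 0.81 (SE 0.16, adjusted p = 0.0036, limma). AGAP007023 stood at 53.9, 52.2, 99.4 and 116 CPM in FW and at 116, 136, 163 and 157 CPM in SW, where FW replicate 4 and SW replicate 1 met, and rose by 0.90 (SE 0.19, adjusted p = 0.0062, limma). AGAP028173 stood at 6.63, 6.35, 51.3 and 34.2 CPM in FW and at 242, 213, 89.6 and 27 CPM in SW. It rose by 2.58 (SE 0.54, adjusted p = 0.0061, limma) although SW replicate 4 lay below 2 FW libraries. At 66 h their differences in An. coluzzii were 0.07, 0.01 and 0.60, in the order AGAP002542, AGAP007023 and AGAP028173, with adjusted p of 0.89, 0.98 and 0.63 (limma).

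The calls at 18 h rested on individual libraries, over all genes as well as over the members. Left out 1 at a time, An. coluzzii 18 h FW replicates 1, 2, 3 and 4 gave 4, 3, 15 and 23 members called in place of 14. The calls over all genes were then 174, 135, 1014 and 1729 in place of 867. Without SW replicates 1, 2, 3 and 4 in turn, 15, 5, 7 and 15 members and 1503, 459, 362 and 658 genes in all were called. Without FW replicates 1 and 2 together 0 members and 18 genes in all (0.171%) were called. An unadjusted p under 0.05 was reached by 5 of 47 (10.6%) and 7 of 33 (21.2%), against 8.5% of all genes. The shares were 13% of genes with d of at least 0.5 at 18 h and 15.1% of those with -0.5 or lower. The adjusted p of AGAP002542, AGAP028173 and AGAP007023 became 0.36, 0.42 and 0.52 (limma). The 18 h-high genes then had a median of 0.11 with 32 of 47 above 0, and the 66 h-high genes a median of -0.34 with 27 of 33 below 0. FW replicates 1 and 2 were singled out by their low level in the 18 h-high genes. Leaving them out lowers the SW minus FW difference of those genes by that choice, so the smaller median is no independent check. When limma was fitted to these 8 libraries alone it called 0 members and 6 genes in all (0.0571%). At an unadjusted p under 0.05 the counts were 15 of 47 (31.9%) and 11 of 33 (33.3%), against 16.6% of all genes. The shares were 29.8% of genes with d of at least 0.5 at 18 h and 27.1% of those with -0.5 or lower. edgeR called 12 members and 766 genes in all (7.29%), and DESeq2 called 16 and 1006 (9.58%).

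These libraries differ in the level of the 18 h-high genes and in depth. Relative to each gene's mean over the 16 An. coluzzii libraries, the median over the 47 genes was -1.21, -1.20, -0.49 and -0.50 in the 18 h FW libraries and -0.26, 0.08, -0.39 and -0.48 in the 18 h SW libraries. The total reads were 5006216, 6630138, 10715120 and 11873495 in the former and ran from 3769859 to 7588059 in the latter. The part of depth in the calls was not tested beyond thinning all libraries to 3769859 reads, which left 7 members and 405 genes in all (3.86%) called. Over all 32 libraries the totals ran from 3769859 to 16633623 reads.

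**Figure D4:**
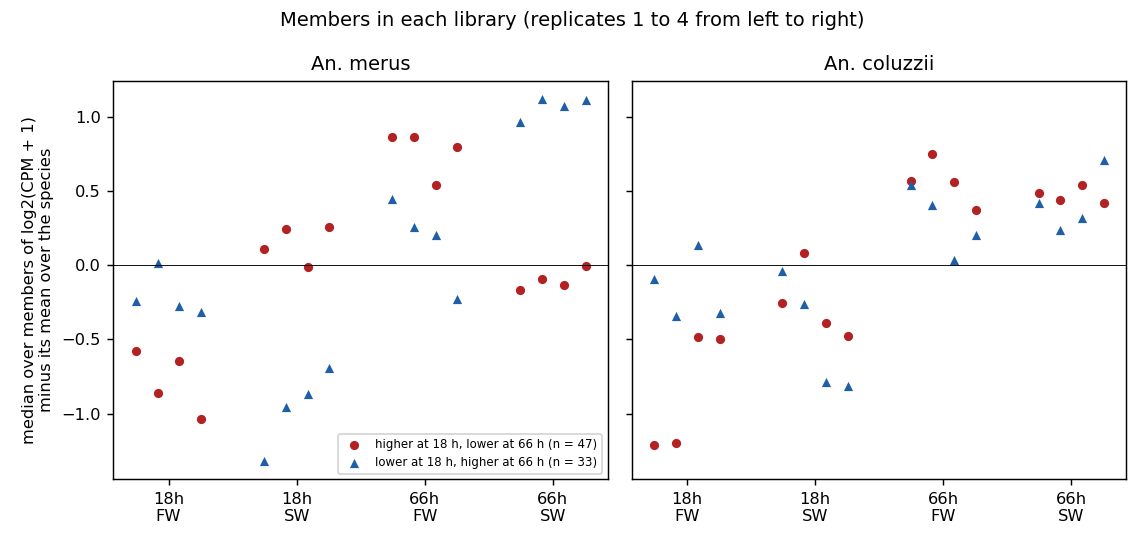
For each library, in replicate order from left to right within a group, the point gives the median over the 47 18 h-high genes (circles) or the 33 66 h-high genes (triangles) of log2(CPM + 1) minus the gene's mean over the 16 libraries of the species. In An. merus the SW and FW libraries of the 18 h-high genes separate at both ages in opposite directions, while in An. coluzzii 18 h FW replicates 1 and 2, at -1.21 and -1.20, stand below the other libraries.

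At 66 h no member was called in An. coluzzii. limma called 0 of the 47 18 h-high genes and 0 of the 33 66 h-high genes, against 1.35% of all genes called higher and 0.885% called lower. At an unadjusted p under 0.05 the counts were 6 of 47 (12.8%) and 5 of 33 (15.2%), against 15.6% of all genes. The 18 h-high genes had 23 differences above 0 and 24 below, with a median of -0.00287, and the 66 h-high genes had 16 and 17, with a median of -0.03. edgeR called 0 members and DESeq2 called 2, AGAP009591 and AGAP011806, both lower in SW. Among all genes with d of -0.5 or lower in An. merus at 66 h 76.5% were below 0 in An. coluzzii at 66 h, against 51.1% of the 18 h-high genes. Among those with d of at least 0.5 80.4% were above 0, against 48.5% of the 66 h-high genes.

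**Figure D5:**
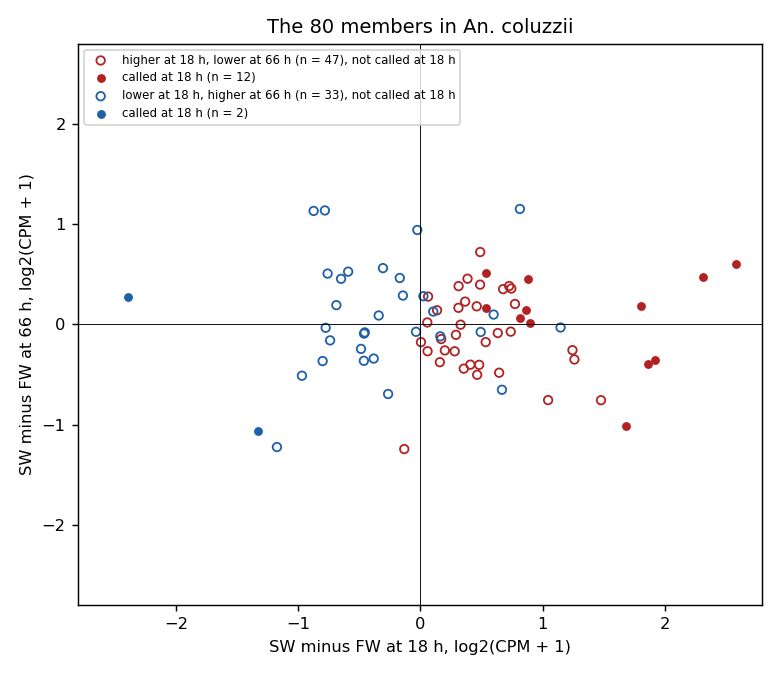
Each point is a member placed by its SW minus FW difference of mean log2(CPM + 1) in An. coluzzii at 18 h (horizontal axis) and at 66 h (vertical axis), filled where called at 18 h (adjusted p under 0.05, limma), n = 4 libraries a group. Of the 47 18 h-high genes 46 lie right of 0 but are divided 23 to 24 about 0 at 66 h, and 25 of the 33 66 h-high genes lie left of 0.

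The An. merus pattern of signs was present in An. coluzzii for 23 of the 47 18 h-high genes and for 12 of the 33 66 h-high genes. With both differences at least 0.5 in size the counts were 3 and 4. Without 18 h FW replicates 1 and 2 it was present for 12 of 47 and 13 of 33, and for 1 and 2 with both differences at least 0.5 in size. The age by water interaction, which tests whether the difference by water changes with age in this species, was called for 1 member, AGAP006980, an 18 h-high gene (0.0286% of all genes were called lower in this term and 0.0476% higher). The interaction was below 0 in 42 of 47 18 h-high genes with a median of -0.55 and above 0 in 25 of 33 66 h-high genes with a median of 0.38. At an unadjusted p under 0.05 the counts were 13 of 47 (27.7%) and 9 of 33 (27.3%), against 9.3% of all genes. Without 18 h FW replicates 1 and 2 the interaction was below 0 in 30 of 47 18 h-high genes with a median of -0.13 and above 0 in 26 of 33 66 h-high genes with a median of 0.30. The counts at an unadjusted p under 0.05 were then 3 and 3, against 3.32% of all genes, and limma called 0 members and 4 genes in all.

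AGAP006980 was scarce in both species. In An. coluzzii it stood at 0.442, 0.227, 0.504 and 0.470 CPM at 18 h in FW and at 5.67, 2.25, 1.79 and 5.96 CPM in SW. By 66 h it stood at 2.0, 0.506, 2.16 and 1.01 CPM in FW and at 0.186, 0.125, 0.170 and 0.101 CPM in SW. The waters did not overlap at either age. The An. merus group means were 0.127 and 3.56 CPM in FW and SW at 18 h and 0.627 and 0.0918 CPM at 66 h, the same arrangement in the other species. The interaction in An. coluzzii was -2.70 (SE 0.51, adjusted p = 0.021, limma). It was no longer called without 18 h FW replicate 1, without 18 h FW replicate 2, without 66 h FW replicate 3 or without 66 h SW replicate 1, and reached an adjusted p of 0.22 without the first 2 together (limma). In its lowest group, An. merus SW at 66 h, which takes no part in that interaction, AGAP006980 was covered by only 3 reads.

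In An. coluzzii more members were called for age than for water, and the same held over all genes tested. Of all genes, 58.6% were called for age in FW and 57.2% in SW, against 8.25% for water at 18 h and 2.24% at 66 h. In FW 34 of the 47 18 h-high genes rose from 18 h to 66 h (29.9% of all genes did) and 0 fell (28.7% of all genes did), with a median of 1.26. In SW 25 rose (29.9% of all genes) and 6 fell (27.2% of all genes), with a median of 0.69. In An. merus, as a description, 44 of the 47 stood higher at 66 h in FW (5234 of all 10505 genes did). The 66 h-high genes were more divided: 13 rose and 5 fell in FW with a median of 0.35, and 15 rose and 1 fell in SW with a median of 0.52. Without 18 h FW replicates 1 and 2, 28 of the 47 18 h-high genes rose in FW (25.1% of all genes) and 2 fell (24.6% of all genes), with a median of 1.01. Of the 33 66 h-high genes 11 then rose and 3 fell, with a median of 0.17.

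Among the strongest age differences in An. coluzzii, AGAP005704, an 18 h-high gene, stood at 1.62, 0.794, 2.59 and 1.61 CPM at 18 h in FW and at 41.9, 47.1, 41.3 and 28.8 CPM at 66 h in FW. It rose by 3.96 in FW (SE 0.26, adjusted p = 2.7e-13, limma) and by 3.63 in SW (SE 0.26, adjusted p = 2.2e-12, limma). AGAP003493, another, rose by 2.92 in FW (SE 0.20, adjusted p = 5.5e-13, limma), from 2.56 ± 0.989 to 25.5 ± 4.73 CPM (SD, n = 4). Neither was called for water at either age in this species, with adjusted p of 0.44 or more in limma.

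Of the 66 h-high genes, AGAP006425 rose by 3.16 in FW (SE 0.22, adjusted p = 8.7e-13, limma), from 2.47 ± 0.943 to 29.8 ± 8.05 CPM (SD, n = 4). In An. merus AGAP006425 had the lowest d at 18 h of all members, with 27.3, 27, 31.6 and 14 CPM in FW against 7.95, 5.13, 6.64 and 4.93 CPM in SW, and with 152, 115, 152 and 119 CPM against 234, 222, 173 and 267 CPM at 66 h. AGAP010812 rose by 2.63 in SW in An. coluzzii (SE 0.19, adjusted p = 1.6e-12, limma), from 8.87 ± 1.16 to 60.2 ± 9.72 CPM. AGAP007275 rose by 4.31 in SW (SE 0.32, adjusted p = 1.5e-11, limma), from 49.3 ± 28.7 to 905 ± 75.3 CPM (SD, n = 4). All 3 also stood higher at 66 h than at 18 h in both waters in An. merus.

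In FW the members stood on both sides of the species difference. The An. merus minus An. coluzzii difference in FW had a median of 0.07 at 18 h and of 0.29 at 66 h over the 18 h-high genes, and of -0.09 and -0.24 over the 66 h-high genes, against 0.03 and 0.06 over all genes. It was above 0 in 26 and 31 of 47 and in 13 and 14 of 33. These levels share 1 set of identifiers for 2 species, so differences in how readily reads align enter them. The species difference at 18 h includes An. coluzzii FW replicates 1 and 2 and was not computed without them. Below 5 CPM in all 4 An. coluzzii groups were 4 18 h-high and 3 66 h-high genes, of which 1, an 18 h-high gene, was below 1 CPM throughout.

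The genes whose 8 group means followed a leading member most closely were mostly not members. For AGAP004501 they were AGAP001365, AGAP007037 and AGAP002662, each with a Pearson correlation of 0.97 over the 8 group means, and the first 2 are 18 h-high genes. For AGAP003513 they were AGAP006483, AGAP008103 and AGAP002764, with correlations of 0.96, 0.96 and 0.94, and none is a member. The 8 points share species, ages and libraries, so the correlations are descriptions.

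Some members had neighbouring identifiers, a feature chosen after the values were seen. Within 10 identifier numbers of another member lay 19 of the 80, in 7 runs, and the files do not say that such genes are neighbours on a chromosome. The longest run, AGAP005702 to AGAP005717, held 5 18 h-high genes among 16 tested. The other 11 genes of it had median d of 0.52 at 18 h and -0.01 at 66 h. Between AGAP006417 and AGAP006430 lay 1 18 h-high and 3 66 h-high genes among 10 tested. AGAP005689 with AGAP005690, both described above, AGAP010811 with AGAP010812, and AGAP004975 with AGAP004976 were adjacent in number and of like direction. Whether such pairs share reads, as near-identical copies would, was not examined, so their values are uncertain.

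Membership depended on the scaling of the libraries more than the signs did. When all libraries were brought to equal sums, the median d over all genes went from -0.02 to -0.21 at 18 h and from -0.06 to -0.26 at 66 h in An. merus. Under that scaling 30 of the 47 18 h-high genes and 17 of the 33 66 h-high genes still met the rule, and both signs of d were kept for all 80. Whichever An. merus library was left out, 22 of the 47 and 11 of the 33 met the rule, and signs were kept for all 47 and for 32 of 33.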

How the data were processed

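The 32 polyA-selected libraries were made, per the labels' protocols, with a kit that does not mark strand, so genes that overlap on opposite strands are not separated. The labels do not state that pools within a group are separate cultures, and p-values then measure only the spread between libraries, which may be technical. For 11025 identifiers the authors deposited a signal per gene: CPM with TMM scaling (trimmed mean of M values). The submitters' processing notes name Trimmomatic, Bowtie2, TopHat2, HTSeq and edgeR, without role or version. The genome build, annotation and filter are not given in the sources used here. Of the 11025 identifiers, 0 matched the gene table available here, so the gene lists prepared for naming matched no gene.

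The members, gene lists and tests were chosen with earlier results of these data known. Values were tested as log2(CPM + 1) with limma 3.58.1 in R 4.3.3, because the deposited signal is not a count; the tests had been planned for CPM. The fit had 8 group means over 32 libraries, 24 residual degrees of freedom, and empirical Bayes moderation (trend and robust). Two-sided p-values were adjusted over 10505 genes within each comparison, after 520 genes with a mean under 1 CPM were left out. Fold changes on this scale understate changes of genes with low values. The fit was tested on simulated counts with 200 changed genes of at least 5 CPM. For water in An. coluzzii it recovered 43.3% of 1.5-fold and 89.6% of 2-fold changes at 18 h, and 46.3% and 85.1% at 66 h. For the interaction it recovered 19.4% and 67.2%. False calls made up 1.97% to 9.70% of the calls over the An. coluzzii comparisons. Each gene was simulated from 1 mean for all libraries, apart from the changes made. The simulated data thus had no age or species differences and no split within An. coluzzii 18 h FW. These rates therefore do not apply directly to the real comparisons, least of all at 18 h. Divided by what 1 read is worth in its library, 100% of the deposited values gave whole reads (tolerance 0.01 reads), with read totals of 3769859 to 16633623. Those reads were used for edgeR 4.0.16, DESeq2 1.42.0 and thinning. Chi-square per degree of freedom between replicates of a group was 5.36 to 50.3 over 48 pairs, above sampling noise, so no pair was counted as 1 library. Statements on few reads cover counting error only.

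Named genes are the 6 members of each direction with the largest smaller d and at least 5 CPM in their highest group, the 2 on each side of the limit, up to 3 called members with the smallest adjusted p in each An. coluzzii comparison, and the 3 genes most like each leading member. Alternatives were other pseudocounts, minimums, scalings, limits on d and tools, and leaving out libraries. Figures were drawn with matplotlib 3.10.9.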

Additional observations from a re-analysis of the deposited data

Results flagged for a closer look

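Of 168 groups of 4 libraries, those of 21 named members, 10 held a library whose gap to the nearest other exceeded the 95% critical value of Dixon's ratio. Chance gives about 1 in 20 groups. In An. coluzzii at 18 h in SW, replicate 1 stood above the others for AGAP003513 (84.1 CPM against 1.54 to 10.6), AGAP004976 (9.03 against 0 to 0.213) and AGAP007275 (92.0 against 32.1 to 40.6), all 66 h-high genes. In An. merus, replicate 4 of 66 h SW stood high for AGAP005690 (69.5 CPM against 22.2 to 30.2) and AGAP008537 (57.0 against 16.1 to 22). Replicate 4 of An. merus 18 h SW stood high for AGAP003513 (20.2 CPM against 4.14 to 6.82) and AGAP005704 (3.96 against 2.39 to 2.48). The single cases were AGAP009591 in An. merus 18 h FW replicate 3 (120.2 CPM against 155 to 159), AGAP008537 in An. coluzzii 18 h FW replicate 4 (1.41 against 5.01 to 5.47) and AGAP006425 in An. coluzzii 66 h FW replicate 2 (41.8 against 24.4 to 26.8).

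The difference by water in An. coluzzii changed with age for AGAP006980, with an interaction of -2.70 on the log2(CPM + 1) scale.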

How the results depend on the processing

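No paired analysis was possible because the labels give no replicate number shared between groups. The number of 18 h-high genes, 47, became 12 with d of at least 0.75 and 22 with a call at both ages, and ran from 42 to 50 when 1 library was left out. The number of 66 h-high genes, 33, became 15 with a pseudocount of 4 CPM, 20 with quantile normalisation, 51 with thinned libraries, 7 with d of at least 0.75 and 13 with a call at both ages, and ran from 26 to 38 when 1 library was left out. Members called in An. coluzzii at 18 h, 14, became 7 with thinned libraries, 0 without FW replicates 1 and 2 and 0 with limma fitted to its 8 libraries alone, and ran from 3 to 23 when 1 library was left out. At 66 h the 0 calls became 2 with DESeq2 and 2 with limma fitted to the 8 libraries alone, AGAP002198 (lower) and AGAP008645 (higher), named after their values were seen. They ran from 0 to 1 when 1 library was left out: AGAP011806 was called without 18 h SW replicate 2 or 66 h FW replicate 3 and AGAP006425 without 66 h SW replicate 4 of An. coluzzii, and AGAP002720 without 66 h FW replicate 3 of An. merus. The 1 call of the interaction became 0 with a pseudocount of 4 CPM, 0 with a minimum of 5 CPM, 0 without 18 h FW replicates 1 and 2 and 2 with DESeq2 (AGAP004876 added), and ran from 0 to 3 when 1 library was left out, with AGAP001424, AGAP003513 and AGAP006980 without 18 h SW replicate 1 and AGAP004876 and AGAP006980 without 18 h SW replicate 4. The cause of these changes was not tested, except that fewer libraries or genes were used where the setting says so. The age differences in An. coluzzii, 52 members in FW and 47 in SW, ran from 47 to 52 and from 40 to 50 when 1 library was left out. For single named genes, only the 25 called pairs of a gene and an An. coluzzii comparison were followed across the settings. Of these values 1011 kept their direction and side of the threshold, 63 kept the direction and lost the call, and none reversed. Leaving out a library outside a comparison cannot change its difference, so the lack of reversals was partly set in advance. Depth limits genes of few reads such as AGAP006980 and AGAP004976.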
